A study of Mus musculus with 4 samples.

Results

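Glycolysis, lactate handling and the entry of pyruvate into mitochondria were followed through 36 genes, chosen by symbol as a pathway, out of 32245 gene symbols in the count matrices. The symbol Aldoa appears there under a pair of gene entries, with 390534 and 114 UMIs over all barcodes, and only the entry with more UMIs was used. The libraries hold dissociated ventricular cells of C57BL/6 mouse embryos of both sexes at embryonic day 14.5. The 2 control libraries carry Tie2Cre; Ets1 fl/+ and the 2 eKO libraries carry Tie2Cre; Ets1 fl/fl. Both groups thus carry Cre and at least 1 floxed allele. Each library pools the ventricles of 3 embryos, so no library stands for a single embryo. Tie2Cre acts in endothelium, endocardium and cells that descend from them, so a change in cardiomyocytes would not come from deletion in those cells. Cells kept were 11340 and 7235 in the controls and 9243 and 13851 in the eKO libraries. Their median UMIs per cell were 9359 and 8937 in the controls and 8749 and 5837 in the eKO libraries, so eKO 2 is the shallowest library.

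The deleted gene was read first. In coronary endothelial-like cells Ets1 stood at 362 and 317 CPM (controls) against 182 and 132 CPM (eKO), and in mural endocardial-like cells at 241 and 228 CPM (controls) against 109.7 and 87.6 CPM (eKO). Both eKO libraries lie below both controls in each of these classes. Ets1 fell in coronary endothelial-like cells, with an edgeR log2 fold change of -1.10 (SE 0.17, adjusted p 0.0174), and in mural endocardial-like cells, with -1.26 (SE 0.15, adjusted p 0.00224). In cardiomyocyte-like cells, at 8.11 and 8.06 against 10.9 and 12.0 CPM, it gave 0.53 (SE 0.12, adjusted p 0.455). In fibroblast-like cells, at 88.8 and 72.3 against 55.9 and 52.2 CPM, it gave -0.53 (SE 0.13, adjusted p 0.275). Neither passed the threshold. These are UMIs from the 3' end of the transcript, and they do not tell whether the remaining RNA includes the deleted part.

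Glucose enters cells through facilitative transporters, is phosphorylated by hexokinase and is committed to glycolysis by phosphofructokinase, whose activator fructose-2,6-bisphosphate is set by the PFKFB enzymes. Some later steps have a broadly used isoform and a muscle or brain one, and others rest on a single gene. Pyruvate then leaves as lactate through lactate dehydrogenase and the monocarboxylate transporters, or enters mitochondria through the pyruvate carrier and pyruvate dehydrogenase, which the PDK kinases switch off.

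Promoters are shown for 5 members of a set of 17 that were higher in coronary than in mural endothelium and also higher in compact than in trabecular myocardium (results below). They were chosen after these results were seen. Sequences come from the RefSeq promoter table on build GRCm38.p6, from 250 bases before to 50 after the start, and 34 of the 36 members have an entry. Capitals mark ACGTG, the core of the hypoxia response element, or its reverse CACGT, and CCGGAA, a core bound by ETS factors, or its reverse TTCCGG. The palindrome CACGTG holds both forms of the former. On either strand, ACGTG lies in 6447 of 32851 promoters (19.6%) and in 22 of the 54 promoters of members (40.7%). CCGGAA lies in 4894 (14.9%) and in 7 (13.0%). By gene it lies in a promoter of 4503 of 27025 genes (16.7%) and of 7 of the 34 members with a promoter. Counted by gene, ACGTG lies in a promoter of 5886 of 27025 genes (21.8%), of 18 of the 34 members with a promoter, and of 10 of the 16 in the set with a promoter. The 5 shown were picked from the 10 by the most matches to ACGTG, and by the larger gap between coronary and mural cells where matches were equal, which left out Hk2. Ldha, Pkm and Pfkfb3 each have another promoter in the table, and the one shown is the one with the most matches. A match describes letters only. The windows are chr7:46845554-46845853 on the plus strand for Ldha, chr11:120948817-120949116 on the plus strand for Slc16a3, chr9:59656977-59657276 on the plus strand for Pkm, chrX:106186850-106187149 on the plus strand for Pgk1 and chr2:11502041-11502340 on the minus strand for Pfkfb3.
Ldha: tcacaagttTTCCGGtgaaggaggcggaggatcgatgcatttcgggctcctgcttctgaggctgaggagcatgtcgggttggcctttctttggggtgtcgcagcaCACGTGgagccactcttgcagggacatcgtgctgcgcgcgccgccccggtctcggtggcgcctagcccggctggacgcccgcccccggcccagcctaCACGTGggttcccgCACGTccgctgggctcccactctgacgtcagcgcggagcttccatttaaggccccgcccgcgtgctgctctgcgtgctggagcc
Slc16a3: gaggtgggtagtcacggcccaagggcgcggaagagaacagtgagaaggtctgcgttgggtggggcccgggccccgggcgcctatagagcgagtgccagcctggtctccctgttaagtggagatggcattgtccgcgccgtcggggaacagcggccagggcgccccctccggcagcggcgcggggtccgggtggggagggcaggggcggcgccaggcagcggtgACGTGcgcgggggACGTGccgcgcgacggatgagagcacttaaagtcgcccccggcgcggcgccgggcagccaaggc
Pkm: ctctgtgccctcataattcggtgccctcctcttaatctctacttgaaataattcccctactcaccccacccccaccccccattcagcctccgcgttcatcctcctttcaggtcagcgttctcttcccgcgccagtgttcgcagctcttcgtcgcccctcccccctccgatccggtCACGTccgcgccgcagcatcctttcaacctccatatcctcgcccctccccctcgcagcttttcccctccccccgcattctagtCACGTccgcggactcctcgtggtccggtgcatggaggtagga
Pgk1: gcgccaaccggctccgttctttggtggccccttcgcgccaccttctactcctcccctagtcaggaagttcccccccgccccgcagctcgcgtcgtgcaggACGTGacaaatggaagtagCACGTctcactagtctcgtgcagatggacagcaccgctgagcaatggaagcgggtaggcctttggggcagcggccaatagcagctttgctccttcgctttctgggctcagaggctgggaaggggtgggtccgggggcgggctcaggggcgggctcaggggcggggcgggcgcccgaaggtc
Pfkfb3: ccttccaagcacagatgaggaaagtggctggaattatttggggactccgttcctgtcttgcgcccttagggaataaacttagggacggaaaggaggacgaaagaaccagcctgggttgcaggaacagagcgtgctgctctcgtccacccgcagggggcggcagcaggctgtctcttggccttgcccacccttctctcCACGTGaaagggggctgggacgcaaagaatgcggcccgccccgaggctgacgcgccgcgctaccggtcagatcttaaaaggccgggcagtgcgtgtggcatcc

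The main question between tissues was which isoforms differ between endothelium and myocardium. Coronary endothelial-like cells had lower levels of nearly all members than cardiomyocyte-like cells of the same libraries. Within several enzyme families the muscle or heart form differed more than the broad form, so the makeup of those families differed. Of 36 members, 1 was higher and 33 were lower by edgeR, where 34.8% and 40.9% of 14897 genes tested were higher and lower. The median log2 fold change of members was -1.58, that of all genes tested -0.09 and that of genes of like level and length 0.06, with 3 members above the median of their like genes. DESeq2 called 34 members. With scaling to total UMIs the median of all genes moved from -0.09 to 0.07.

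Mural endocardial-like cells lay further below the myocardium, by the members' median. Most broad isoforms were lower in both endothelial classes, with a wider gap in mural cells. None of 36 members was higher and 34 were lower, where 37.7% and 39.7% of 15288 genes tested were higher and lower. The median of members was -2.72, of all genes -0.03 and of like genes -0.21, and 1 member lay above its like genes. DESeq2 called 34 members. Scaling to total UMIs moved the median of all genes from -0.03 to 0.31 and the split of higher and lower calls from 5756 and 6070 to 7774 and 4389.

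**Figure D1:**
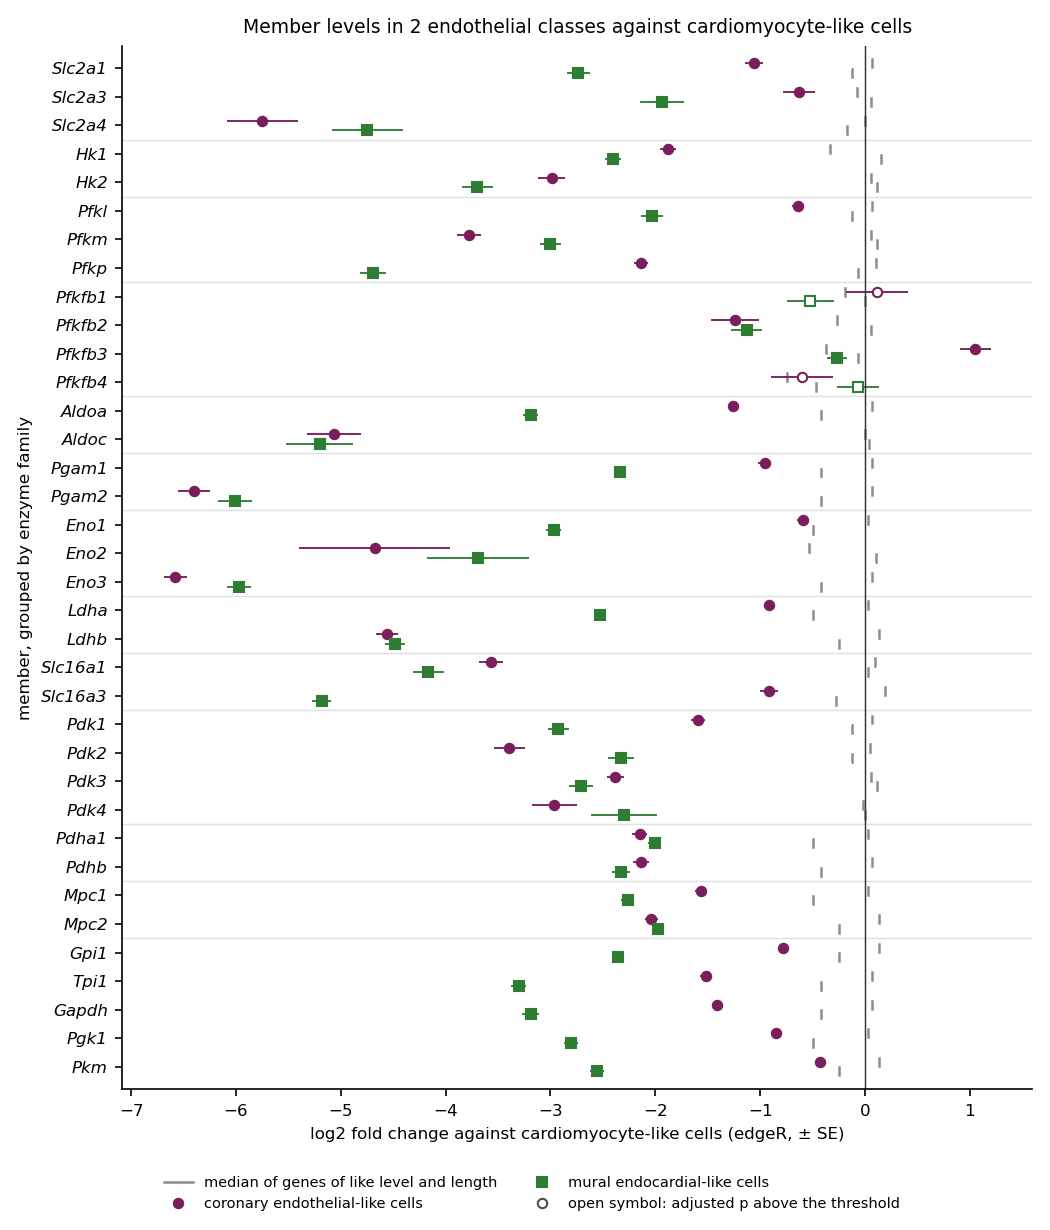
Log2 fold change (SE as bars) of each member in coronary endothelial-like (circles) and mural endocardial-like cells (squares) against cardiomyocyte-like cells over 4 libraries; grey ticks are medians of genes of like level and length, and open symbols did not pass the threshold. Muscle isoforms such as Eno3 and Pgam2 lie furthest down, and Pfkfb3 alone passed the threshold above 0, in coronary cells.

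All 3 glucose transporters were lower in endothelium, Slc2a4, the insulin-responsive one, by far the most. Slc2a1 is the broad form. In control 1, control 2, eKO 1 and eKO 2, in that order throughout, Slc2a1 stood at 40.0, 48.0, 51.9 and 57.4 CPM in coronary, 14.0, 13.0, 17.8 and 17.1 in mural and 103, 120.5, 93.8 and 112 in cardiomyocyte-like cells. Its log2 fold change against cardiomyocytes was -1.06 (SE 0.09, adjusted p 2.38e-07) in coronary and -2.74 (SE 0.11, adjusted p 3.61e-08) in mural cells. Slc2a4, at 15.2, 14.1, 12.1 and 13.5 CPM in cardiomyocytes, left 4 UMIs in all coronary and 16 in all mural cells, with -5.75 (SE 0.34, adjusted p 1.28e-08) and -4.75 (SE 0.34, adjusted p 1.78e-06). Every endothelial library lay below every cardiomyocyte library for both genes. Slc2a3, a high-affinity transporter, was lower, at -0.63 (SE 0.16, adjusted p 0.00290) and -1.94 (SE 0.21, adjusted p 2.70e-05). At 2000 UMIs per cell its coronary call was lost (adjusted p 0.0717). As a mean share of the UMIs of this family, Slc2a4 was 0.371% in coronary, 2.31% in mural and 10.3% in cardiomyocyte-like cells. The endothelial shares are uneven between libraries. Slc2a4 stood at 0.368, 0, 0 and 0.457 CPM in coronary and 0.425, 0.278, 0 and 1.17 CPM in mural cells, highest in eKO 2.

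Hexokinase, which traps glucose in the cell, was shifted toward Hk1 in endothelium. Hk2 made up 25.5, 26.2, 33.1 and 20.03% of the family in cardiomyocytes of the 4 libraries and 10.6, 8.49, 24.1 and 14.8% in coronary cells. The coronary share was lower than the cardiomyocyte share within every library. Hk2 differed from cardiomyocytes by a log2 fold change of -2.99 (SE 0.13, adjusted p 7.52e-10) in coronary and -3.70 (SE 0.15, adjusted p 3.71e-08) in mural cells. Hk1 differed by -1.88 (SE 0.08, adjusted p 3.89e-10) and -2.40 (SE 0.08, adjusted p 8.69e-09). The eKO 1 library had the highest Hk2 share in coronary, mural, cardiomyocyte and compact cells, so the shift was read within libraries.

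Phosphofructokinase, the committed step, had the liver-type Pfkl as the larger part in endothelium and the platelet-type Pfkp in cardiomyocytes. Pfkl made up 58.1% of the family in coronary, 63.9% in mural and 29.5% in cardiomyocyte-like cells, on average over 4 libraries. Pfkp made up 39.5, 41.1, 38.9 and 34.9% in coronary and 56.2, 56.3, 55.4 and 53.3% in cardiomyocyte-like cells, lower in coronary cells in each library. In mural cells its share was 19.3%. The muscle-type Pfkm made up 3.35%, 16.7% and 15.2% in coronary, mural and cardiomyocyte-like cells, so the loss of its share held in coronary cells only. By level, Pfkm was lower than in cardiomyocytes, at -3.78 (SE 0.11, adjusted p 2.11e-11) in coronary and -3.00 (SE 0.10, adjusted p 1.01e-08) in mural cells. Pfkp was lower, at -2.14 (SE 0.06, adjusted p 2.20e-11) and -4.69 (SE 0.12, adjusted p 3.26e-09), and Pfkl was at -0.64 (SE 0.06, adjusted p 8.85e-07) and -2.03 (SE 0.10, adjusted p 1.51e-07).

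Pfkfb3, the PFKFB enzyme with the strongest kinase side, was the only member higher in coronary endothelium than in myocardium. It stood at 22.3, 21.3, 28.8 and 33.6 CPM in coronary, 9.99, 13.0, 10.1 and 9.81 in mural and 13.8, 14.7, 13.4 and 11.7 in cardiomyocyte-like cells. All 4 coronary values lie above all 4 cardiomyocyte values. The log2 fold change was 1.05 (SE 0.14, adjusted p 3.17e-05) in coronary cells and -0.27 (SE 0.09, adjusted p 0.0282) in mural cells. The mural call did not hold: it was 0.07 (adjusted p 0.523) with total UMI scaling, and it was lost at 2000 UMIs per cell (0.408), with the stricter marker gate (0.228), without control 1 (0.0916) and without eKO 1 (0.0949). Its share of the family was 82.9, 72.5, 78.4 and 81.7% in coronary cells and 52.8, 56.1, 55.5 and 53.4% in cardiomyocytes, higher in coronary cells in each library. The family is sparse, with 439 UMIs of Pfkfb3 in coronary cells. Pfkfb2, the heart form, was lower in both endothelial classes, at -1.24 (SE 0.23, adjusted p 0.000377) and -1.13 (SE 0.15, adjusted p 0.000107). At 2000 UMIs per cell the coronary value of Pfkfb2 was -0.48 (adjusted p 0.351). Pfkfb1, at 0.12 and -0.52, and Pfkfb4, at -0.60 and -0.07, passed the threshold in neither class (adjusted p 0.735 and 0.0607, and 0.0829 and 0.766).

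The middle steps used the broad isoforms almost alone in endothelium. Aldoc, the brain-type aldolase, was 1.27% of aldolase UMIs in cardiomyocytes and 0.0835% in coronary cells, with a log2 fold change of -5.06 (SE 0.25, adjusted p 2.59e-09) in coronary and -5.20 (SE 0.32, adjusted p 6.33e-07) in mural cells. Aldoa, the main aldolase, was lower, at -1.26 (SE 0.05, adjusted p 2.79e-10) and -3.19 (SE 0.07, adjusted p 2.07e-09). Pgam2, the muscle phosphoglycerate mutase, stood at 668, 625, 702 and 841 CPM in cardiomyocytes, 10.5, 2.58, 6.87 and 10.5 in coronary and 10.6, 5.14, 10.2 and 17.3 in mural cells. No endothelial value comes near a cardiomyocyte one. Pgam2 was lower, at -6.40 (SE 0.15, adjusted p 3.05e-12) in coronary and -6.01 (SE 0.16, adjusted p 4.02e-09) in mural cells, and its partner Pgam1 at -0.96 (SE 0.06, adjusted p 2.49e-08) and -2.34 (SE 0.05, adjusted p 2.45e-09). Pgam2 went from 50.4, 51.1, 50.5 and 45.1% of the family in cardiomyocytes to 3.58, 0.746, 1.95 and 2.10% in coronary cells, a mean difference of -47.2 points (SD 3.16).

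Enolase gave the largest switch of all families. Eno3, the muscle enolase, stood at 470.0, 409, 441 and 513 CPM in cardiomyocytes, 4.97, 2.25, 4.39 and 6.17 in coronary and 8.40, 5.14, 5.04 and 9.46 in mural cells. All endothelial values lie far below all cardiomyocyte values. The log2 fold change of Eno3 was -6.58 (SE 0.11, adjusted p 4.52e-13) in coronary and -5.97 (SE 0.12, adjusted p 1.90e-09) in mural cells, and that of Eno1, the broad form, -0.59 (SE 0.05, adjusted p 7.38e-07) and -2.97 (SE 0.07, adjusted p 2.66e-09). The Eno3 share was 61.9, 59.98, 58.1 and 60.98% in cardiomyocytes and 2.92, 1.22, 2.09 and 2.85% in coronary cells, a mean difference of -58.0 points (SD 1.35), and 15.8% in mural cells. Eno2, the neuronal form, left 1 UMI in coronary and 4 in mural cells.

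The steps with 1 gene each had a wider gap in mural than in coronary cells. Pkm, which makes pyruvate, stood at 655, 795, 689 and 908 CPM in coronary, 149.9, 180.2, 162 and 209 in mural and 986, 987, 1010.0 and 1289 in cardiomyocyte-like cells. Within each library coronary cells lie below cardiomyocytes and mural cells far below. The log2 fold change was -0.43 (SE 0.05, adjusted p 1.38e-05) in coronary and -2.56 (SE 0.06, adjusted p 2.84e-09) in mural cells. Gapdh differed by -1.41 (SE 0.05, adjusted p 1.07e-10) and -3.19 (SE 0.08, adjusted p 3.40e-09). For Pgk1, which makes the first ATP, the values were -0.85 (SE 0.05, adjusted p 1.20e-08) and -2.81 (SE 0.07, adjusted p 2.63e-09). Gpi1 differed by -0.78 (SE 0.05, adjusted p 1.66e-08) and -2.35 (SE 0.05, adjusted p 2.32e-09), and Tpi1 by -1.52 (SE 0.05, adjusted p 8.49e-11) and -3.30 (SE 0.07, adjusted p 2.04e-09). Counts per gene cannot separate the M1 and M2 forms of Pkm.

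**Figure D2:**
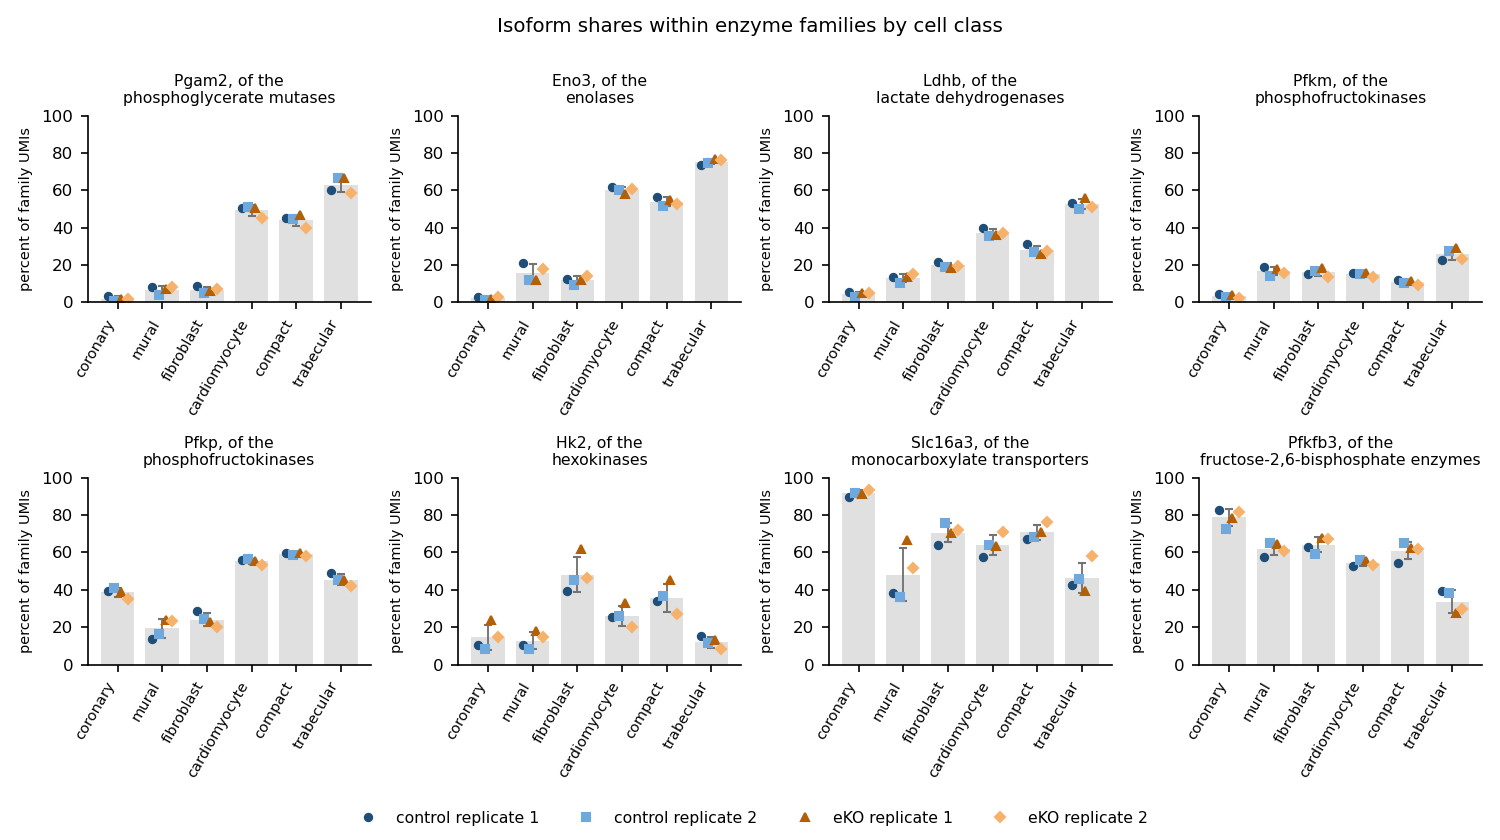
Percent of a family's UMIs held by each of 8 members in coronary, mural, fibroblast, cardiomyocyte, compact and trabecular cells; bars are means, error bars SD and points the 4 libraries. The muscle forms Pgam2, Eno3 and the heart form Ldhb are low in endothelium and highest in trabecular cells.

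Lactate dehydrogenase was shifted toward Ldha, the form that favours lactate from pyruvate, in endothelium. Ldhb, the heart form, stood at 1088, 857, 958 and 1272 CPM in cardiomyocytes, 41.4, 23.5, 47.0 and 59.4 in coronary and 40.4, 31.0, 45.9 and 66.5 in mural cells. The endothelial and cardiomyocyte libraries do not overlap. The log2 fold change of Ldhb was -4.56 (SE 0.11, adjusted p 2.61e-12) in coronary and -4.48 (SE 0.10, adjusted p 2.12e-09) in mural cells, and that of Ldha was -0.92 (SE 0.05, adjusted p 6.70e-09) and -2.52 (SE 0.06, adjusted p 2.37e-09). Ldhb held 40.00, 35.6, 35.96 and 37.1% of the family in cardiomyocytes and 5.33, 2.76, 5.07 and 4.92% in coronary cells, a mean difference of -32.7 points (SD 1.58). In mural cells its share was 13.2%.

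The lactate transporters parted the endothelial classes. Slc16a3 encodes MCT4, a lactate exporter, and Slc16a1 encodes MCT1. Slc16a3 stood at 38.3, 51.2, 53.0 and 89.2 CPM in coronary, 2.23, 2.36, 3.36 and 3.97 in mural and 95.1, 103, 104 and 143 in cardiomyocyte-like cells. Coronary values lie below the cardiomyocyte value of the same library, and mural values lie below all others. Slc16a3 was lower than in cardiomyocytes, at -0.92 (SE 0.09, adjusted p 1.05e-06) in coronary and -5.18 (SE 0.09, adjusted p 1.66e-09) in mural cells. Slc16a1 was lower, at -3.57 (SE 0.12, adjusted p 5.12e-11) and -4.16 (SE 0.15, adjusted p 1.83e-08). Slc16a3 therefore held 89.7, 91.9, 91.5 and 93.5% of the pair in coronary cells, against 57.5, 63.8, 63.6 and 70.96% in cardiomyocytes, a mean difference of 27.7 points (SD 3.92).

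Genes for pyruvate entry were lower in both endothelial classes. Pdha1 and Pdhb, the subunits of pyruvate dehydrogenase E1, differed from cardiomyocytes by -2.15 (SE 0.07, adjusted p 5.59e-11) and -2.14 (SE 0.08, adjusted p 1.13e-10) in coronary cells, and by -2.01 (SE 0.07, adjusted p 1.03e-08) and -2.32 (SE 0.08, adjusted p 1.94e-08) in mural cells. Mpc1 and Mpc2, the pyruvate carrier, differed by -1.57 (SE 0.06, adjusted p 1.73e-10) and -2.04 (SE 0.06, adjusted p 2.23e-11) in coronary cells. In mural cells they differed by -2.26 (SE 0.06, adjusted p 4.20e-09) and -1.97 (SE 0.06, adjusted p 6.51e-09). Among the kinases that switch pyruvate dehydrogenase off, Pdk1 had 59.1% of the family in coronary, 36.7% in mural and 42.2% in cardiomyocyte-like cells. In coronary cells the log2 fold changes were -1.59 (SE 0.07, adjusted p 5.85e-10) for Pdk1, -3.39 (SE 0.15, adjusted p 6.42e-10) for Pdk2, -2.38 (SE 0.08, adjusted p 8.70e-11) for Pdk3 and for Pdk4 -2.96 (SE 0.22, adjusted p 1.05e-07). In mural cells the values were -2.92 (SE 0.10, adjusted p 1.05e-08) for Pdk1, -2.32 (SE 0.12, adjusted p 2.47e-07) for Pdk2, -2.71 (SE 0.11, adjusted p 4.98e-08) for Pdk3 and -2.30 (SE 0.31, adjusted p 0.000141) for Pdk4.

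Free RNA from lysed cardiomyocytes can set a floor under the muscle isoforms in endothelial cells. The 8 cardiomyocyte markers, all detected, summed in coronary cells to 861 and 572 CPM (controls) against 786 and 1113 CPM (eKO), with Tpm1 the most abundant at 330.3 CPM. This is 1.69, 1.22, 1.48 and 2.00% of the cardiomyocyte level, and single markers ran from 0.716% for Ttn to 4.15% for Tpm1. Against the same scale, coronary Eno3 stood at 0.953%, Pgam2 at 1.05%, Slc2a4 at 1.45%, Aldoc at 2.71% and Ldhb at 4.03% of their cardiomyocyte levels. In mural cells the marker list stood at 1.78% and Eno3 at 1.51%, Pgam2 at 1.48%, Aldoc at 2.48%, Slc16a3 at 2.66%, Slc2a4 at 3.35%, Pfkp at 3.76% and Ldhb at 4.33%. The markers' range is set at the top by Tpm1 in coronary cells, where the other 7 reach 2.03%, and by Tnni1 (3.75%) and Tpm1 (3.27%) in mural cells, where the other 6 reach 1.73%. Tpm1 also stood at 7.76% in fibroblast-like cells and did not share the low value of control 2 in coronary cells. Eno3, Pgam2 and coronary Slc2a4 thus lie among most markers, whereas Ldhb and mural Slc16a3 and Pfkp lie above most of them. Aldoc and mural Slc2a4 lie above most markers by their means, which lean on eKO 2. By library, coronary Aldoc stood at 0.985, 1.80, 2.14 and 5.92%. Mural Aldoc stood at 2.85, 1.55, 0 and 5.54%, and mural Slc2a4 at 2.80, 1.97, 0 and 8.65%. How much of these UMIs is made in the endothelial cells was not tested. By contrast, coronary Gapdh stood at 36.1%, Slc16a3 at 50.7% and Ldha at 50.9%.

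For the isoform shares, a sign permutation over 4 libraries has a smallest exact two-sided p of 0.125. It was 0.125 for each of Eno3, Pgam2, Ldhb, Pfkl, Hk2 and Pfkfb3 between coronary and cardiomyocyte-like cells, because all 4 libraries point the same way. The shares weigh genes by UMIs from their 3' ends and do not measure protein.

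The next question was whether coronary endothelium and mural endocardium differ from each other. Coronary cells carried more of the broad glycolytic transcripts at almost every step from uptake to lactate export. Of 33 members tested, 21 were higher and 4 lower in coronary cells, where 33.4% and 33% of 12318 genes tested were higher and lower. The members' median was 0.71, that of all genes -0.02 and that of like genes 0.04, with 23 members above their like genes. DESeq2 called 21. Scaling to total UMIs moved the median of all genes from -0.02 to -0.21 and the split of calls from 4115 higher and 4059 lower to 3107 and 5459.

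Slc16a3 led, with the values per library given above and no overlap between classes, at a log2 fold change of 4.29 (SE 0.12, adjusted p 5.50e-11). Pfkp followed, from 6.59, 7.63, 9.65 and 11.7 CPM in mural to 49.7, 58.6, 50.5 and 48.0 CPM in coronary cells, without overlap, at 2.56 (SE 0.14, adjusted p 1.12e-08). Next came Eno1 at 2.39 (SE 0.06, adjusted p 2.48e-11), Pkm at 2.14 (SE 0.05, adjusted p 1.06e-11), Pgk1 at 1.97 (SE 0.05, adjusted p 3.03e-11) and Aldoa at 1.94 (SE 0.06, adjusted p 5.71e-11). The 10 largest also include Tpi1 at 1.80 (SE 0.06, adjusted p 2.86e-10), Gapdh at 1.79 (SE 0.05, adjusted p 2.69e-11), Slc2a1 at 1.69 (SE 0.10, adjusted p 1.55e-08) and Ldha at 1.62 (SE 0.05, adjusted p 5.22e-11). Lower in coronary cells were Pdk2 at -1.06 (SE 0.25, adjusted p 0.00270), Pfkm at -0.79 (SE 0.18, adjusted p 0.00236), Eno3 at -0.63 (SE 0.20, adjusted p 0.0137) and Pgam2 at -0.45 (SE 0.17, adjusted p 0.0359). Eno3 was not called without control 1 (adjusted p 0.0558), and Pgam2 not without control 2 (0.0733), eKO 1 (0.0942) or eKO 2 (0.184). DESeq2 did not call Eno3 and Pgam2, which lie within the range of the free cardiomyocyte markers in both classes, so how much of this gap is free RNA was not tested. Ldhb did not differ, at -0.07 (SE 0.09, adjusted p 0.471), so its lower share in coronary cells goes with higher Ldha.

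Compact and trabecular myocardium were compared in the same way. Compact cells carried more of the broad glycolytic steps, and trabecular cells more Ldhb, Hk1 and muscle isoforms. Of 35 members tested, 18 were higher and 8 lower in compact cells, where 24.1% and 24.2% of 12579 genes tested were higher and lower. The median of members was 0.33, that of all genes 0.00 and that of like genes 0.01, with 22 members above their like genes. DESeq2 called 26. With total UMI scaling the split of calls went from 3026 higher and 3038 lower to 3911 and 2445. The classes are ranges of a continuous marker score: 2573 cells lie within 1.5 times of the compact threshold, on either side of it, and 4271 lie past it. For the trabecular threshold these are 1535 and 2857 cells.

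Aldoc stood out, at 49.6, 45.1, 59.1 and 54.5 CPM in compact and 4.48, 6.61, 4.54 and 8.25 CPM in trabecular cells, without overlap, with a log2 fold change of 3.08 (SE 0.13, adjusted p 1.32e-13). Slc2a3 followed at 1.83 (SE 0.15, adjusted p 4.78e-09), with Slc16a3 at 1.62 (SE 0.08, adjusted p 1.01e-12), Pfkfb3 at 1.47 (SE 0.18, adjusted p 8.46e-07) and Hk2 at 1.35 (SE 0.11, adjusted p 5.07e-09). The 10 largest are completed by Pgk1 at 1.19 (SE 0.06, adjusted p 3.60e-12), Pfkp at 1.11 (SE 0.07, adjusted p 8.18e-11), Pdk1 at 1.09 (SE 0.07, adjusted p 2.40e-10), Tpi1 at 1.07 (SE 0.05, adjusted p 1.07e-12) and Ldha at 0.93 (SE 0.06, adjusted p 8.84e-11). Ldhb stood at 857, 669, 747 and 955 CPM in compact and 1176, 984, 1099 and 1491 CPM in trabecular cells, lower in compact cells in each library, with a log2 fold change of -0.58 (SE 0.05, adjusted p 2.10e-09). Also lower in compact cells were Hk1 at -0.69 (SE 0.06, adjusted p 8.95e-09), Pdk3 at -0.66 (SE 0.06, adjusted p 3.59e-08), Pfkm at -0.52 (SE 0.07, adjusted p 2.00e-06) and Eno3 at -0.48 (SE 0.07, adjusted p 1.80e-05). As shares, Ldhb was 31.2, 27.02, 26.2 and 27.7% in compact and 53.3, 50.1, 56.1 and 50.9% in trabecular cells, Eno3 54.0% and 75.4%, and Hk2 35.7% and 11.9%.

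**Figure D3:**
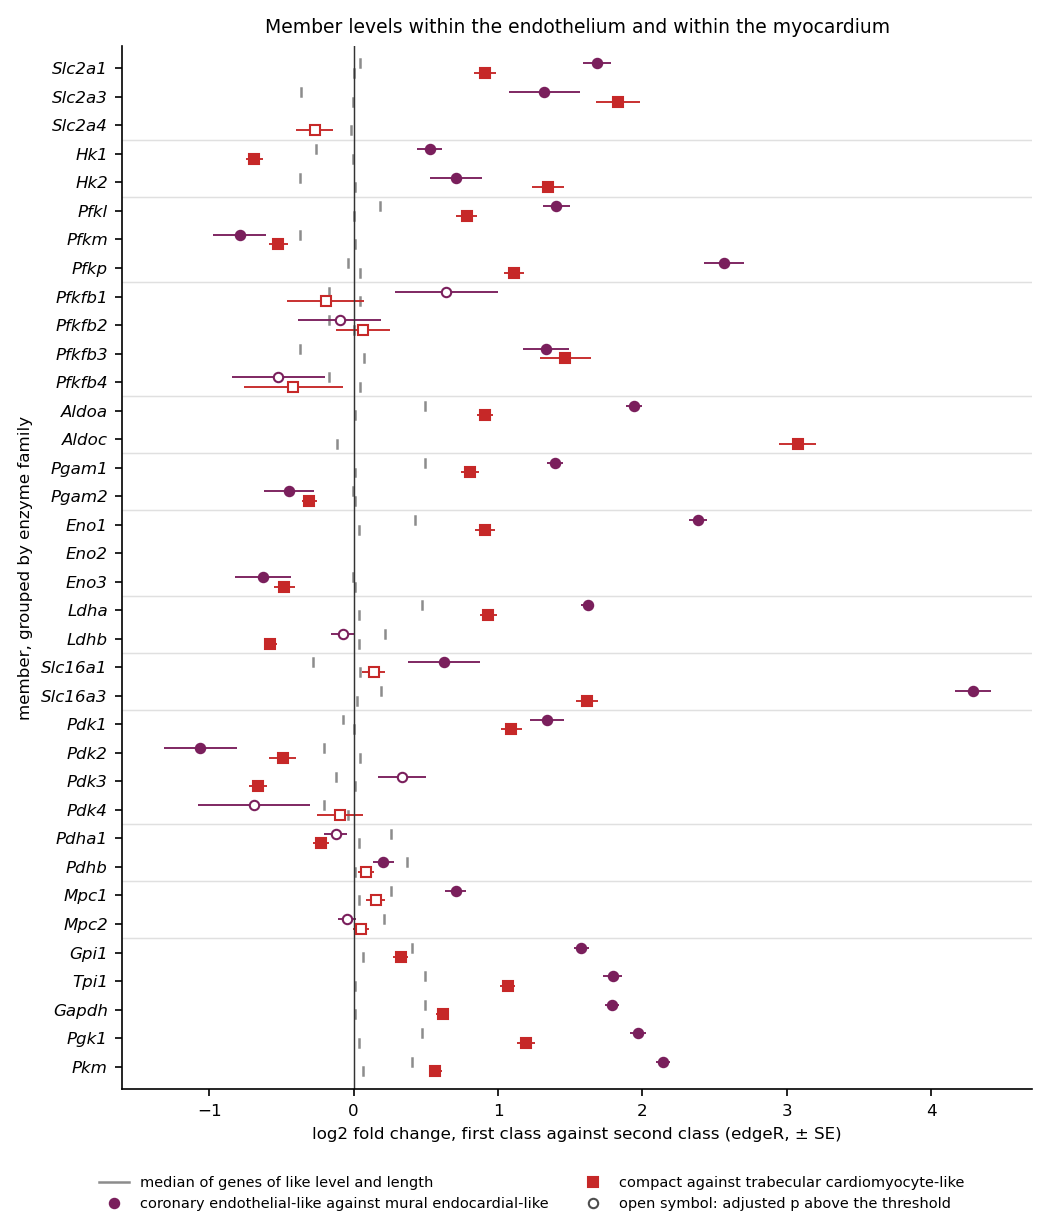
Log2 fold change (SE as bars) of each member between coronary and mural endothelial-like cells (circles) and between compact and trabecular cardiomyocyte-like cells (squares), over 4 libraries; grey ticks are medians of genes of like level and length, and open symbols did not pass the threshold. Most broad isoforms lie above 0 in both contrasts, and Ldhb, Eno3, Pgam2 and Pfkm do not.

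Lists of neighbouring pathways were read in the same contrasts. Of all genes tested, 33.4% were higher and 33% lower in coronary against mural cells, and 24.1% and 24.2% in compact against trabecular cells. Against cardiomyocytes these shares were 34.8% and 40.9% for coronary and 37.7% and 39.7% for mural cells. The HIF-responsive genes other than members, 21 of 22 matched, followed the members within each tissue. In coronary against mural cells 15 of 19 were higher and 1 lower, with a median of 1.04, led by Adm at 5.58 (SE 0.19, adjusted p 1.68e-10), Ankrd37 at 4.14 (SE 0.12, adjusted p 5.99e-11), Stc2 at 2.76 (SE 0.30, adjusted p 4.94e-06), Bnip3 at 2.36 (SE 0.15, adjusted p 4.61e-08) and Mif at 2.10 (SE 0.07, adjusted p 1.26e-10), and Kdm3a was lower at -0.33 (SE 0.09, adjusted p 0.00767). In compact against trabecular cells 17 of 19 were higher and 0 lower, with a median of 0.79, led by Egln3 at 2.70 (SE 0.21, adjusted p 1.47e-09), Bnip3 at 1.96 (SE 0.08, adjusted p 1.99e-13), P4ha2 at 1.84 (SE 0.10, adjusted p 5.39e-12), Ndrg1 at 1.66 (SE 0.15, adjusted p 1.70e-08) and Mif at 1.62 (SE 0.06, adjusted p 1.71e-14). Against cardiomyocytes the list was mixed, with 7 higher and 9 lower of 20 in coronary cells and 4 higher and 15 lower of 21 in mural cells. The 10 HIF factors and regulators had 4 higher and 3 lower in coronary against mural cells by edgeR. Hif1a stood there at 0.37 (SE 0.07, adjusted p 0.000609) and Epas1 at 0.56 (SE 0.06, adjusted p 9.27e-06). In compact against trabecular cells 4 were higher and 2 lower, with Hif1a at 0.52 (SE 0.05, adjusted p 1.33e-07) and Epas1 at -2.87 (SE 0.27, adjusted p 3.12e-08). Egln1 and Egln3 are on both lists. Hypoxia itself was not measured.

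Glycogen genes, 17 of 17 matched, were mostly lower in endothelium than in myocardium. Of all genes tested, 34.8% were higher and 40.9% lower in coronary, and 37.7% and 39.7% in mural, against cardiomyocyte-like cells. The shares were 33.4% and 33% in coronary against mural and 24.1% and 24.2% in compact against trabecular cells. Against cardiomyocytes 1 was higher and 14 lower of 16 in coronary cells, led by Pygm at -5.64 (SE 0.13, adjusted p 2.35e-12) and Gyg at -4.07 (SE 0.07, adjusted p 6.32e-13), with Pgm2 higher at 2.77 (SE 0.11, adjusted p 1.85e-10). In mural cells 2 were higher and 11 lower of 16. Coronary against mural cells gave 3 higher and 6 lower of 15, and compact against trabecular cells 2 higher and 10 lower of 16, led by Phkg1 at -3.15 (SE 0.30, adjusted p 4.30e-08) and Pygm at -1.05 (SE 0.07, adjusted p 1.29e-10). Pentose phosphate genes, 12 of 12 matched, gave 5 higher and 3 lower of 10 in coronary against cardiomyocyte-like cells. Tkt, the transketolase, led them at 2.46 (SE 0.06, adjusted p 4.28e-12). They gave 3 higher and 6 lower of 10 in mural cells, 8 and 1 of 10 in coronary against mural cells, and 3 and 2 of 10 in compact against trabecular cells. Other glycolysis and pyruvate genes, 23 of 24 matched, gave 2 higher and 9 lower of 15 in coronary against cardiomyocyte-like cells, with Dlat, the E2 subunit of pyruvate dehydrogenase, at -2.21 (SE 0.07, adjusted p 1.82e-11). They gave 3 and 10 of 15 in mural cells, 3 and 5 of 13 in coronary against mural cells, and 1 and 2 of 12 in compact against trabecular cells. Several of these counts lie near the shares of all genes, among them glycogen and the other genes in coronary against mural cells.

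Turning to the deletion, the first question was whether Ets1 loss moves these genes in coronary endothelium. No member passed the threshold with 2 libraries per group. Members leaned upward, with 28 of the 32 tested above 0 where 52.1% of all genes were, and the lean was largest in eKO 2. Of 32 members tested, 0 were called by edgeR, where 0.663% of 11319 genes tested were called, 48 higher and 27 lower; total UMI scaling gives 38 and 53. At an unadjusted p under 0.05 there were 8 members, all higher, and 13.0% of all genes. DESeq2 called 58 genes and 0 members. The median of members was 0.28, of all genes 0.02 and of like genes 0.08, with 26 members above their like genes. Both eKO libraries lay above both controls for 15 members and below for 1, where 22.4% and 23.4% of all genes did so. Slc2a4, Aldoc, Eno2 and Pfkfb4 were too sparse to test.

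The members named next were picked by their p after the values were seen. Pfkfb3 stood at 22.3 and 21.3 CPM (controls) against 28.8 and 33.6 CPM (eKO), with a log2 fold change of 0.53 (SE 0.17, adjusted p 0.241). Slc16a3, at 38.3 and 51.2 against 53.0 and 89.2 CPM, gave 0.71 (SE 0.23, adjusted p 0.252), and Ldhb, at 41.4 and 23.5 against 47.0 and 59.4 CPM, gave 0.69 (SE 0.23, adjusted p 0.254). Both eKO libraries lie above both controls for each of these, with eKO 2 highest. Hk2, at 6.26 and 5.80 against 15.9 and 7.32 CPM, gave 0.92 (SE 0.36, adjusted p 0.322) with eKO 1 far above the other libraries. Ldha, at 736 and 829 against 879 and 1149 CPM, gave 0.39 (SE 0.17, adjusted p 0.377). Hk1, the broad hexokinase, was the only tested member with both eKO libraries below both controls, at 52.8 and 62.5 against 50.3 and 42.1 CPM, with -0.30 (SE 0.16, adjusted p 0.447). Coronary Ldhb and the cardiomyocyte marker sum above are both lowest in control 2 and highest in eKO 2, and what part of Ldhb is free RNA was not tested. In tests of the deletion, here and below, leaving out a library leaves 1 group with a single library. The spread then comes from the other group, so such calls show only how the result depends on a library. Leaving out eKO 1 raised the genes called from 75 to 914 and the members called to 9, all higher (Aldoa, Gapdh, Pgk1, Tpi1, Ldha, Pfkfb3, Pgam1, Ldhb and Slc16a3). Without control 1 there were 169 genes and 1 member (Ldhb), without control 2 150 genes and 1 member (Slc16a3), and without eKO 2 328 genes and 1 member (Hk2).

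In mural endocardium the same question had the same answer. No member passed the threshold in the main fit, members leaned upward, and the lowest p belonged to a kinase that was lower. With no filter on low counts several members were called, as given below under processing. Of 33 members tested, 0 were called by edgeR, where 2.04% of 12913 genes tested were called, 131 higher and 132 lower; total UMI scaling gives 151 and 291. At an unadjusted p under 0.05 there were 10 members, 8 higher and 2 lower, and 20.5% of all genes. DESeq2 called 303 genes and 0 members. The median of members was 0.20, of all genes 0.01 and of like genes 0.05, with 21 members above their like genes. Both eKO libraries lay above both controls for 14 members and below for 5, where 24.7% and 27.5% of all genes did so.

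Again by p, after the values were seen, Pdk4 came first. Pdk4 stood at 8.51 and 2.92 CPM (controls) against 1.54 and 1.75 CPM (eKO), so the controls differ widely, and both eKO libraries lie below both. Its log2 fold change was -1.83 (SE 0.50, adjusted p 0.0913). Ldhb, at 40.4 and 31.0 against 45.9 and 66.5 CPM, gave 0.64 (SE 0.20, adjusted p 0.123), and Tpi1, at 106 and 101 against 126 and 175 CPM, gave 0.52 (SE 0.16, adjusted p 0.127), both with the eKO libraries above the controls and eKO 2 highest. Pfkp, at 6.59 and 7.63 against 9.65 and 11.7 CPM, gave 0.58 (SE 0.23, adjusted p 0.188), and Pdk1, at 15.1 and 14.7 against 11.6 and 11.1 CPM, gave -0.41 (SE 0.18, adjusted p 0.240), each without overlap. Pdk3 is X-linked and stood at 13.8 and 8.61 against 17.5 and 18.0 CPM. As in coronary cells, each fit without a library leaves 1 group with a single library. Leaving out eKO 1 raised the genes called from 263 to 2113 and the members called to 11, 10 higher and Pdk4 lower. Without control 1, 374 genes and 3 members (Ldhb, Pdk3 and Pgam2) were called. Without control 2 there were 520 genes and 1 member (Pdk4), and without eKO 2 885 genes and 1 member (Pdk4).

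**Figure D4:**
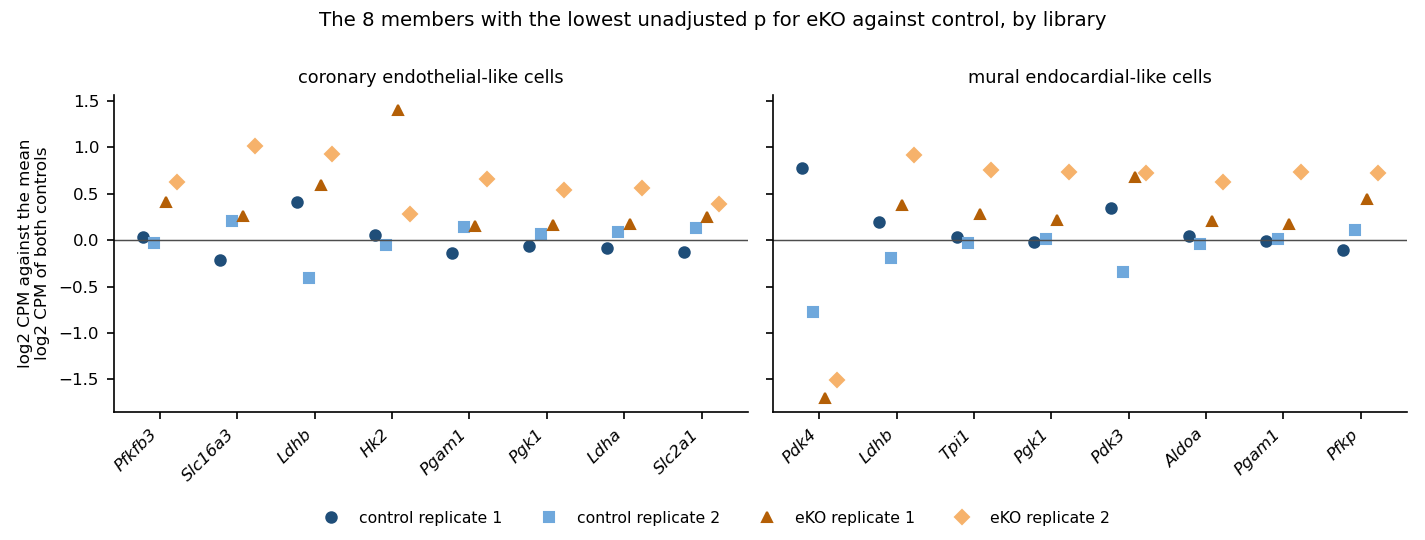
Log2 CPM against the mean of both controls for the 8 members with the lowest unadjusted p in coronary (left) and mural cells (right), each point a library. Most lie higher in both eKO libraries, with eKO 2 mostly furthest, and none passed the adjusted threshold.

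Cardiomyocytes, which do not express Tie2Cre, were asked whether they shift next to a deleted endothelium. By edgeR no member and no gene was called. Of 36 members, 0 were called by edgeR, where 0% of 16346 genes tested were called. At an unadjusted p under 0.05 there were 2 members, both higher, and 10.6% of all genes, and DESeq2 called 26 genes and 0 members. The median of members was 0.16, of all genes 0.01 and of like genes 0.21, with 13 members above their like genes. Both eKO libraries lay above both controls for 15 members and below for 6, where 22.6% and 25.1% of all genes did so. Aldoc had the lowest p, at 18.7 and 17.9 CPM (controls) against 25.7 and 23.2 CPM (eKO), without overlap, with a log2 fold change of 0.45 (SE 0.11, adjusted p 0.455). Hk2 stood at 68.1 and 71.1 against 107 and 44.6 CPM, so the eKO libraries lie on opposite sides of the controls. Without eKO 1, eKO 2 alone stands for the deletion and the spread comes from the controls. Leaving out eKO 1 called 1105 genes and 3 members (Slc16a3 and Pgam1 higher, Hk2 lower), and the other choices 9 to 49 genes and 0 members. Total UMI scaling moved the median of all genes from 0.01 to -0.10 and that of members from 0.16 to 0.05.

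Fibroblast-like cells, whose gate takes in cushion mesenchyme that descends in part from Tie2Cre cells, also showed no called member in the main fit. With no filter on low counts Eno3 was called. Of 36 members, 0 were called by edgeR, where 0.0268% of 14933 genes tested were called. At an unadjusted p under 0.05 there were 3 members, 2 higher and 1 lower, and 10.7% of all genes, and DESeq2 called 112 genes and 0 members. The median of members was 0.15, of all genes 0.01 and of like genes 0.04, with 25 members above their like genes. Both eKO libraries lay above both controls for 10 members and below for 3, where 21.5% and 22.6% of all genes did so. Hk1 had the lowest p, at 27.6 and 29.9 CPM (controls) against 21.0 and 20.1 CPM (eKO), without overlap, with a log2 fold change of -0.44 (SE 0.12, adjusted p 0.312). Genes called went from 4 to 522 without control 1, which also called 2 members (Eno3 and Pgam2), and to 104 without control 2, 35 without eKO 1 and 13 without eKO 2, with 0 members each.

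The upward lean was then set per library beside gene length. In all 4 classes the members' median stood highest in eKO 2, and the shortest genes lay above the longest in both eKO libraries. Against the mean of both controls, the members' median in eKO 1 and eKO 2 was 0.15 and 0.36 in coronary, 0.10 and 0.32 in mural, 0.09 and 0.25 in cardiomyocyte and 0.01 and 0.31 in fibroblast-like cells. The shortest 20% of genes stood in eKO 2 at 0.19, 0.21, 0.15 and 0.13 in the same classes, and the longest 20% at -0.19, -0.21, -0.20 and -0.15. Genes of like level and length stood in eKO 2 at 0.09, 0.05, 0.25 and 0.04 in these classes, so they had the members' value in cardiomyocytes and lay well below it in the other 3. The mitochondrial share of UMIs was lower in both eKO libraries than in both controls in each class: 2.51 and 2.56% (controls) against 2.05 and 2.00% (eKO) in coronary, 3.78 and 3.97% against 2.90 and 2.89% in mural, 5.65 and 5.58% against 4.58 and 4.47% in cardiomyocyte, and 2.33 and 2.44% against 1.92 and 2.06% in fibroblast-like cells. How it bears on the lean was not tested. With an offset for gene length the members' medians between groups became 0.20, 0.17, 0.13 and 0.12. The length slope and the genotype cannot be told apart with these libraries, and eKO 2 is also the shallowest library and has the fewest Y-linked UMIs, 159 against 25524, 8389 and 7722 in control 1, control 2 and eKO 1.

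**Figure D5:**
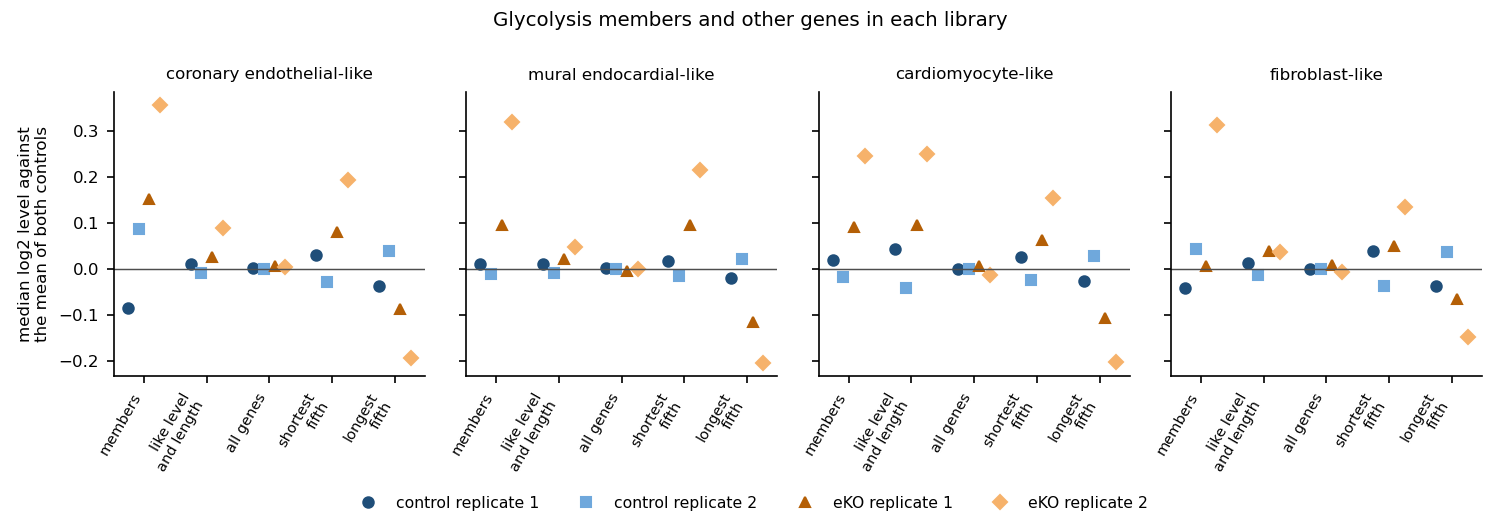
Median log2 level against the mean of both controls in each library, in 4 cell classes, for members, genes of like level and length, all genes tested, and the shortest and longest 20% of genes. Members stand higher in eKO 2 than in eKO 1 in each class, as do the shortest genes.

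Whether the effect of the deletion differs between endothelium and myocardium was tested directly. No member showed a difference past the threshold in the main fit. With the stricter marker gate Slc2a1 and Ldhb were called for coronary and Pfkl for mural against cardiomyocyte-like cells. With no filter on low counts 2 members were called in each contrast. For coronary against cardiomyocyte-like cells 0 of 36 members were called by edgeR, where 0.411% of 15828 genes tested were called, with 7 members and 8.74% of all genes at an unadjusted p under 0.05, and 0 members among 107 genes called by DESeq2. Slc2a1 came first by p, seen afterwards, with a difference of 0.41 (SE 0.12, adjusted p 0.270), then Pfkfb3 at 0.67 (SE 0.20, adjusted p 0.270), Hk2 at 0.77 (SE 0.23, adjusted p 0.274) and Ldhb at 0.47 (SE 0.14, adjusted p 0.283). Slc2a1 stood at 40.0 and 48.0 against 51.9 and 57.4 CPM in coronary cells, both eKO libraries above, and at 103 and 120.5 against 93.8 and 112 CPM in cardiomyocytes, with overlap. For mural against cardiomyocyte-like cells 0 of 36 members were called by edgeR, where 0.479% of 16279 genes tested were called, with 6 members and 9.68% of all genes at an unadjusted p under 0.05, and 0 members among 62 genes called by DESeq2. Pfkl, at 32.9 and 31.8 against 23.5 and 30.7 CPM in mural and 117 and 120.1 against 125 and 143 CPM in cardiomyocyte-like cells, came first, with a difference of -0.47 (SE 0.12, adjusted p 0.196), then Pdk4 at -1.65 (SE 0.48, adjusted p 0.261). Leaving out eKO 1 called 2 members in coronary cells (Slc16a3 and Pfkfb3) and raised the genes called there from 65 to 327. Without control 1, control 2 or eKO 2 there were 2, 3 and 168 genes and 0 members. In mural cells leaving out control 2 called 1 member (Pdk4) and moved the genes called from 78 to 30, and there were 334 genes without eKO 1 and 141 without eKO 2.

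Among the neighbouring lists, calls after deletion were few and lay in the HIF lists, and whether those lists differ from the others was not tested. In coronary cells 2 of 19 HIF-responsive genes rose and 0 fell, where 0.663% of all genes were called. The median of the list was 0.42 with 17 of 19 above 0, where 52.1% of all genes were. Its median was 0.01 with 10 of 17 above 0 in mural, 0.07 with 13 of 20 in cardiomyocyte and 0.09 with 14 of 21 in fibroblast-like cells. Adm, a vascular peptide, stood at 30.6 and 25.4 CPM (controls) against 64.3 and 55.3 CPM (eKO), without overlap, with a log2 fold change of 1.09 (SE 0.16, adjusted p 0.0123). Vegfa, at 19.7 and 18.7 against 36.8 and 45.3 CPM, likewise without overlap, gave 1.11 (SE 0.18, adjusted p 0.0174). Both were called under every alternative. In mural cells 1 of 10 HIF factors fell, where 2.04% of all genes were called. This was Epas1, which encodes HIF-2α, at 106 and 99.2 against 65.0 and 68.8 CPM, without overlap, with -0.63 (SE 0.13, adjusted p 0.0346), called by edgeR but not without control 1 (adjusted p 0.137) or control 2, at 2000 UMIs per cell (0.114), with the gene length offset (0.0690) or with the stricter marker gate (0.0862). In coronary cells the 12 other glycolysis and pyruvate genes, 10 pentose phosphate genes, 14 glycogen genes and 9 HIF factors tested had 0 calls by edgeR, with 0, 2, 1 and 2 at an unadjusted p under 0.05. In mural cells the 12, 10 and 16 of the metabolic lists and the 17 HIF-responsive genes had 0 calls, with 0, 3, 1 and 5 unadjusted. Cardiomyocyte and fibroblast-like cells had 0 calls from any list.

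Markers of other cell types were read beside the endothelial results. In mural cells the 8 cardiomyocyte markers summed to 919.7 and 567 CPM (controls) against 929 and 1321 CPM (eKO). The 8 fibroblast and mesenchyme markers, all detected in mural cells, summed to 416 and 393 against 569 and 558 CPM, with Col3a1 the most abundant, so they were higher in both eKO libraries. In coronary cells that list summed to 50.3 and 37.4 against 25.3 and 35.9 CPM. The 3 compact cardiomyocyte markers, led by Tnnt1, summed in coronary cells to 45.5 and 39.9 against 108.2 and 107.2 CPM, higher in both eKO libraries without overlap, as Ldhb, Adm and Vegfa were. The gate markers of each class also differed by group: the 7 coronary ones, led by Fabp4, summed in coronary cells to 7782 and 6509 against 8913 and 10006 CPM, and the 7 mural ones, led by Tmem108, in mural cells to 4221 and 4140.1 against 3494 and 3328 CPM. The 5 proliferation genes, led by Top2a, summed to 360.3 and 503 against 569 and 736 CPM in mural cells and to 1079 and 1053 against 1068 and 1124 CPM in coronary cells. Between classes, their mean sum was 1081 CPM in coronary and 542 CPM in mural cells, and 1012 CPM in compact and 609 CPM in trabecular cells. In all cardiomyocyte-like cells it was 927 CPM. How far proliferation bears on the contrasts of classes was not tested. The 9 erythroid genes, led by Hbb-bs, summed to 194 and 73.1 against 178 and 233 CPM in coronary cells, with control 2 low in every class. In cardiomyocytes the 6 trabecular markers, led by Nppa, summed to 2695 and 2697 against 2490.1 and 5102 CPM, so eKO 2 holds more trabecular signal. The compact markers summed there to 1368 and 1277 against 1834 and 1635 CPM, higher in both eKO libraries, and compact cells had 18 members higher and 8 lower than trabecular cells. In fibroblast-like cells the 7 smooth muscle and pericyte markers, led by Eln, summed to 489 and 986 against 256 and 220.3 CPM, lower in both eKO libraries. How far any of these lists moves the members, Adm or Vegfa was not tested. Cells were not clustered within a class, so a change within cells and a change in the makeup of a class cannot be told apart.

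Several limits hold for all of this. Tests of the deletion rest on 2 pools per group, and their calls depend on which library is left out. Background RNA was not removed. Processed pseudogenes make the counts of Gapdh, Pgk1, Ldha, Eno1, Aldoa, Pkm, Tpi1 and Pgam1 uncertain. Pgk1, Pdha1, Pdk3 and Pfkfb1 are X-linked, and the libraries differ in sex: Xist had 11 and 23004 UMIs in the controls and 23881 and 49311 in the eKO libraries. Cell classes rest on marker gates set after the marker distributions were seen, and pairs of like cells in a droplet stay in. RNA levels do not measure glycolytic flux, lactate or enzyme activity.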

How the data were processed

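The authors deposited gene-by-barcode count matrices of UMIs from 10x 3' v3.1 libraries, made with Cell Ranger 7.1.0 on mm10 (whether introns were counted is not stated). The study names Seurat 4.3.0 for later steps, and the matrices hold more barcodes than the cell limits below leave. The 4 libraries hold 45551 barcodes and 399075562 UMIs: 124140739 and 76931208 in the controls, 95131419 and 102872196 in the eKO libraries. Kept were 41669 cells, those having between 200 and 7000 genes, no more than 20% of UMIs from mitochondrial, 35% from ribosomal and 2% from hemoglobin genes. Classes came from the summed CPM of markers (cardiomyocyte at least 12000, endothelial 800, fibroblast 1500, then coronary 1500, mural 1000, compact 2000, trabecular 5000). Cells past 2 gates (2619, 6.29%) or none (1559, 3.74%) were left out, and no doublet caller was run. This left 20834 cardiomyocyte, 3554 compact, 2543 trabecular, 1486 coronary, 4121 mural and 8213 fibroblast-like cells. Compact and trabecular cells are also in the cardiomyocyte class. Valve endocardial-like cells (492) were not tested. Coronary cells numbered 394 and 211 in the controls and 323 and 558 in the eKO libraries, mural cells 1004 and 727, and 794 and 1596.

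Sums of UMIs, made for every class in every library, went into edgeR 4.0.16 (TMM, filterByExpr, quasi-likelihood, Benjamini-Hochberg over all genes tested at 0.05) in R 4.3.3. Contrasts of classes used the library as a block, and effects were compared by a class-by-condition term. Alternatives were DESeq2 1.42.0, total UMI scaling, no filter on low counts, a gene length offset, stricter cell and marker gates, thinning to 2000 UMIs per cell, a replicate block and leaving out each library. CPM share 1 TMM scale over classes. Genes of like level and length share a bin of 10 level and 5 length bins. The other steps used Python 3.11.15, numpy 2.4.6, pandas 2.3.3, scipy 1.17.1 and matplotlib 3.10.9. Only the edgeR fits, for part of the comparisons, were tested on simulated counts.

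Members and lists were chosen with earlier results of these data known. The rule for named genes was Ets1, members by enzyme family (full statistics for those past the threshold, or the 10 largest, and for families whose paralogs differ between classes), from other lists at most 5 genes past the threshold per direction, and gate markers. Members named outside the rule were chosen after the values were seen, also where their passage does not say so.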

Additional observations from a re-analysis of the deposited data

Results flagged for a closer look

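A difference in the eKO effect between cell classes, by edgeR's class-by-condition test, marked 4 results on genes outside the members. Ets1 differed between coronary and cardiomyocyte-like cells by -1.66 (adjusted p 0.000191) and between mural and cardiomyocyte-like cells by -1.80 (adjusted p 0.00176). Vegfa differed between coronary and cardiomyocyte-like cells by 1.11 (adjusted p 0.00756), at 19.7 and 18.7 against 36.8 and 45.3 CPM in coronary and 69.6 and 64.1 against 66.7 and 63.6 CPM in cardiomyocyte-like cells. Without control 1 its adjusted p was 0.468, and without control 2 it was 0.311. Mxi1 differed in the same contrast by 0.72 (adjusted p 0.0169), at 53.8 and 48.0 against 76.9 and 68.4 CPM in coronary and 69.7 and 68.2 against 63.6 and 53.5 CPM in cardiomyocyte-like cells. It was not called without control 1 (0.430), without control 2 (0.400) or at 2000 UMIs per cell (0.0777).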

How the results depend on the processing

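Each result was refitted under the alternatives. The count of members called after deletion, 0 in each class, moved under several of them. In coronary cells it was 1 at 2000 UMIs per cell (Slc16a3), 2 with no filter on low counts (Ldhb and Slc16a3) and 1 to 9 when a library was left out. In mural cells it was 7 with no filter and 1 to 11 when a library was left out. In cardiomyocyte-like cells it was 0 to 3 when a library was left out, and in fibroblast-like cells 1 with no filter (Eno3) and 0 to 2 when a library was left out. The high ends came without eKO 1, save in fibroblast-like cells, where they came without control 1.

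Members with a different effect between classes numbered, for coronary against cardiomyocyte-like cells, 2 with no filter, 2 with the stricter marker gate (Slc2a1 and Ldhb) and 0 to 2 when a library was left out. For mural against cardiomyocyte-like cells they numbered 2 with no filter, 1 with the stricter marker gate (Pfkl) and 0 to 1 when a library was left out.

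The members' median log2 fold change after deletion ran, when a library was left out, from 0.13 to 0.37 in coronary, 0.10 to 0.32 in mural, 0.08 to 0.25 in cardiomyocyte and 0.01 to 0.31 in fibroblast-like cells. With total UMI scaling it was 0.05 in cardiomyocyte-like cells.

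With the replicate number as a block (replicate block), 0 members were called in each of the 4 classes, and genes called numbered 56 in coronary, 397 in mural, 79 in cardiomyocyte and 145 in fibroblast-like cells. Deviations of same-numbered libraries correlated at -0.0954, -0.0155, -0.0969 and -0.0801 in these classes. With only 2 numbers the samples share only a number.

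Counts of all genes called after deletion moved as well. In coronary cells 75 became 29 at 2000 UMIs per cell, 354 with no filter and 150 to 914 when a library was left out. In mural cells 263 became 1060 with no filter, 442 with total UMI scaling and 374 to 2113 when a library was left out. In cardiomyocyte-like cells 0 became 5 at 2000 UMIs per cell, 26 by DESeq2, 8 with no filter, 1 with total UMI scaling and 9 to 1105 when a library was left out. In fibroblast-like cells 4 became 26, 112 and 583 under the first 3 of these and 13 to 522 when a library was left out. For the class-by-condition term, 65 genes in coronary cells became 39 at 2000 UMIs per cell, 107 by DESeq2, 266 with no filter, 151 with the stricter marker gate and 2 to 327 when a library was left out. In mural cells 78 became 568 with no filter, 193 with the stricter marker gate and 30 to 334 when a library was left out. At 2000 UMIs per cell, genes called between classes went from 11275 to 7487 for coronary against cardiomyocyte-like, from 8174 to 4775 for coronary against mural and from 6064 to 2972 for compact against trabecular cells.

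Between classes, members called ran from 31 to 34 for coronary and 32 to 35 for mural against cardiomyocyte-like cells, from 18 to 26 for coronary against mural cells and from 26 to 30 for compact against trabecular cells. Members tested but not called under some alternative were Pfkfb2 and Slc2a3 in coronary and Pfkfb3 in mural against cardiomyocyte-like cells, Slc16a1, Pgam2, Eno3 and Pdhb in coronary against mural cells, and Pgam2 in compact against trabecular cells. At 2000 UMIs per cell Eno2 was too sparse to test in both contrasts against cardiomyocyte-like cells, as were Slc16a1, Hk2, Slc2a3, Eno3, Pdk2 and Pfkm in coronary against mural cells, where 17 of the 25 calls were kept. Pfkfb3 in mural against cardiomyocyte-like cells reversed to 0.07 (adjusted p 0.523) with total UMI scaling. The Hk2 difference between the eKO effects of coronary and cardiomyocyte-like cells reversed to -0.02 (adjusted p 1.00) at 2000 UMIs per cell.

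Of 558 isoform shares refitted, 12 moved by more than the SD between the 4 libraries. At 2000 UMIs per cell the coronary shares became 87.6% for Slc2a1, 73.8% for Pfkfb3, 5.77% for Pfkfb4, 10.5% for Slc16a1, 89.5% for Slc16a3, 42.8% for Pdha1 and 57.2% for Pdhb. The cardiomyocyte shares became 56.6% for Pfkfb3, 7.32% for Pfkfb4 and 0.308% for Eno2. With the stricter marker gate the mural shares became 65.5% for Pfkfb3 and 6.97% for Pfkfb4.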

Other observations

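Hk2 stood highest in eKO 1 in coronary (15.9 CPM), mural (8.11 CPM), cardiomyocyte (107 CPM), compact (144 CPM) and fibroblast-like cells (33.9 CPM). In trabecular cells it did not, at 41.1, 33.1, 37.4 and 18.4 CPM. What sets it in that library was not tested.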
